A study of Mus musculus with 6 samples.

Results

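The 7 helper cytokine genes *Il21*, *Il4*, *Ifng*, *Il2*, *Il10*, *Il6* and *Tnf* were followed in splenic follicular helper T (Tfh) cells, as a named list among the 53379 genes of the count data. Tfh cells are the CD4+ T cells that help B cells in the germinal center, and they were sorted as live TCRβ+CD4+CXCR5+PD1+ cells from 3 CTL and 3 *Prdm1*-CKO female mice. The mice were given 100 µg NP-CGG, a hapten on a carrier protein, in CFA at 6 to 8 weeks of age, and Tfh cells were taken on day 7 for bulk RNA-seq, 1 Smart-seq2 library per mouse. *Prdm1*-CKO mice carried *Prdm1* fl/fl with a CD11c-driven Cre, used to delete *Prdm1* in dendritic cells. Whether Cre also acted in the sorted T cells was not tested. The CTL group of the study held *Prdm1* fl/fl mice without Cre and *Prdm1* +/+ mice with Cre. The labels do not say which of these genotypes each CTL mouse had, and they call the second group a knockout in 1 field and a knockdown in another. *Prdm1* itself, which encodes BLIMP-1, averaged 30.6 ± 0.374 CPM (counts scaled to the TMM-adjusted library size) over *Prdm1*-CKO and 28.8 ± 1.23 CPM over CTL libraries (SD, n = 3 per group). Since the deletion was aimed at dendritic cells, this level does not check the labels.

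Helper T cells act on other cells largely through secreted cytokines, which bind receptor chains that are often shared and signal through JAK and STAT proteins or, for TNF, through NF-κB. In the germinal center, IL-21 and IL-4 from Tfh cells act directly on B cells, driving their proliferation, class switching and differentiation into plasma cells, and IFN-γ directs switching to other isotypes. Cytokine genes are switched on by factors such as NFAT and AP-1 after T cell receptor signals, and their mRNAs are short-lived, because AU-rich elements in the 3′ UTR recruit decay factors.

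All 7 genes carried an AU-rich pentamer. The letters ATTTA occurred in the 3′ UTR of the transcript used for each of the 7 genes and in 67.8% of the 11667 tested genes with such a sequence, at 6.83 matches per kb in the 7 genes and 1.81 per kb in the tested genes. The longer nonamer TTATTTATT occurred in *Il21*, *Il2* and *Tnf*, which is 42.9% of the 7 genes, and in 7.59% of the tested genes, counting overlapping matches on the transcript strand. *Tnf* held 5 nonamers, 3 of them in the stretch printed here, and *Il21* and *Il2* held 1 each. The 3 sites are shown because they are the sequence feature that sets these genes apart from the other 4 of the list. They are given on the minus strand of GRCm38, with the nonamer in capitals, at chr3:37222828-37222852 for *Il21*, chr3:37120900-37120924 for *Il2* and chr17:35199684-35199708 for *Tnf*, where matches overlap.
Il21: cttaatgaTTATTTATTatgtattt
Il2: atctgaaaTTATTTATTatattgaa
Tnf: aTTATTTATTATTTATTTATTattt

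*Il2* and *Il21* are neighbors on chromosome 3, 96799 bp apart and on the same strand, so the starts of both are printed for comparison, from 250 bases before to 50 bases after the start given by RefSeq on GRCm38.p6. The *Il21* window is chr3:37232587-37232886 and the *Il2* window is chr3:37125905-37126204, both on the minus strand, and the capitals mark GGAAA, the core letters bound by NFAT, on either strand.
Il21: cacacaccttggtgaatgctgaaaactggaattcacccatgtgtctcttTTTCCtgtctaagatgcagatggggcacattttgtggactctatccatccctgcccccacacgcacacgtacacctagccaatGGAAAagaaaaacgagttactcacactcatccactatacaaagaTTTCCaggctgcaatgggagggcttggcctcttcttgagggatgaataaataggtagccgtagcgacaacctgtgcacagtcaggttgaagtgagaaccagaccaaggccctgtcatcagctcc
Il2: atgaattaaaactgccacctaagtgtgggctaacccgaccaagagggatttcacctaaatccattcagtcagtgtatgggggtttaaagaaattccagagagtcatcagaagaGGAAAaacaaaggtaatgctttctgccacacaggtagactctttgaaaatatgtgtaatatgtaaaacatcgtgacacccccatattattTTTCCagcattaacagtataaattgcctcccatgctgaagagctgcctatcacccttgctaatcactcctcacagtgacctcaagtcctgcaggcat
The *Il21* window held 3 of these matches and the *Il2* window 2, and 61.3% of 32851 promoters of this length held at least 1. RefSeq windows were found for 6 of the 7 genes, without *Il10*, and each held GGAAA. The AP-1 letters TGANTCA occurred in the *Il6* window and in 7.81% of promoters, and the letters TATAAA occurred in the *Ifng*, *Il2* and *Tnf* windows and in 13.6% of promoters. These matches describe the letters and are not evidence of binding.

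All 7 cytokine transcripts were detected. Total counts per mouse lay between 7147601 and 16973392. A floor of 3 counts then corresponded to between 0.169 and 0.444 CPM, for counting error only. Of the 42 values of 7 genes in 6 mice, 41 lay above the floor, and the exception was *Il6* in CTL replicate 3. All 7 genes also passed the expression filter that left 14555 genes for testing. CTL replicate 2 stood apart from the other 5 mice, at 135 on a first principal component that held 56.4% of the variance and on which the others lay between -29.1 and -24.0. Values of the 7 genes without this mouse are therefore given below.

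The sort was checked against marker genes. All 11 Tfh and CD4 T cell markers, among them *Cd4*, *Cxcr5*, *Pdcd1* and *Bcl6*, were above the floor in every mouse, and their summed level was 3778 to 4925 CPM in CTL and 3805 to 3970 CPM in *Prdm1*-CKO mice. Transcripts of other cells were present too. The 9 macrophage and monocyte markers summed to 2203 to 4721 CPM in CTL and 3854 to 4624 CPM in *Prdm1*-CKO mice, and 8 of them were above the floor in every mouse. *Lyz2* alone made up most of these sums, at 1763 to 3476 CPM in CTL and 2933 to 3458 CPM in *Prdm1*-CKO mice. The gate did not select on FOXP3, and the 5 regulatory T cell markers summed to 856 to 951 CPM in CTL and 770 to 880 CPM in *Prdm1*-CKO mice. The 8 B cell markers summed to 114 to 206 CPM in CTL and 175 to 268 CPM in *Prdm1*-CKO mice. For the 6 dendritic cell markers the sums were 55.3 to 114 and 83.7 to 124 CPM, in the same order. The 4 plasma cell markers summed to 258 to 411 and 391 to 668 CPM. Most of this was *Jchain*, at 254.2 to 383.5 and 362.6 to 636.1 CPM. Only 2 of these 4 markers were above the floor in every mouse, and *Tnfrsf17* and *Sdc1* had 0 counts in CTL replicate 2. In a bulk library, fewer cells that make a cytokine and less RNA per cell cannot be told apart. The part of other cells was not tested in the cytokine values or in those of the other genes named below.

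*Tnf* and *Ifng* were the most abundant of the 7 transcripts per length. Levels were compared between genes as RPKM, the CPM divided by the summed exon length in kb. *Tnf* had a mean of 39.2 RPKM over 6 mice, above 90.0% of tested genes, followed by *Ifng* at 14.0 RPKM, *Il2* at 5.36, *Il21* at 4.13, *Il10* at 3.64, *Il4* at 3.60 and *Il6* at 1.37 RPKM. *Il6*, the lowest, was above 20.5% of tested genes. *Tnf* ranked first and *Ifng* second in each of the 6 mice. Of the 6 pairs of neighbors in this order, *Tnf* over *Ifng* and *Ifng* over *Il2* each held in 6 of 6 mice, with an exact paired permutation p = 0.0312, the smallest that 6 mice allow (two-sided, adjusted p = 0.0938 over the 6 pairs). *Il4* was above *Il6* in 5 of 6 mice (exact p = 0.0625, adjusted p = 0.125). The 3 pairs in between, from *Il2* down to *Il4*, differed by less than the spread between mice (exact p = 0.344 to 0.906). The pairs, here and in the orders below, were taken from the means of the same 6 mice. Their p-values thus describe the order and do not test it.

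**Figure D1:**
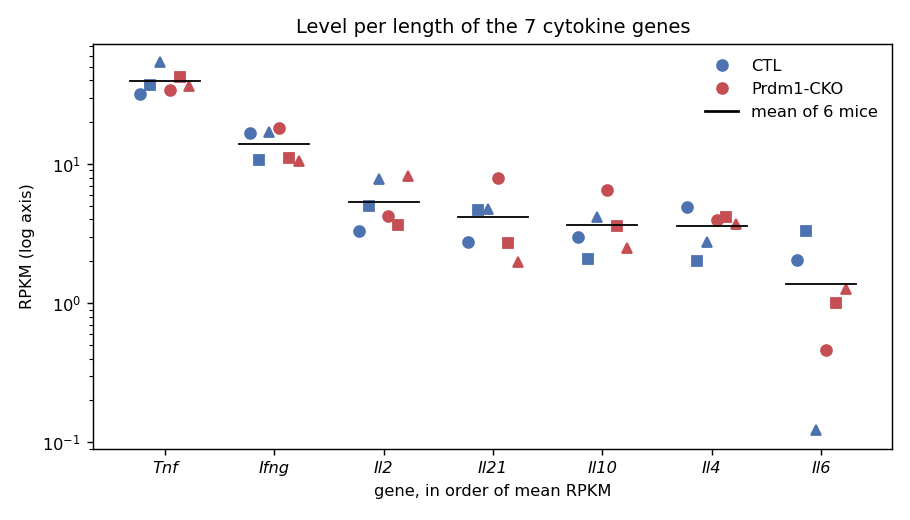
RPKM on a log axis for the 7 cytokine genes, ordered by mean, with 1 point per mouse (circle, square and triangle for replicates 1, 2 and 3) and a line at the mean of 6 mice. *Tnf* lies between 31.9 and 53.8 RPKM, above every *Ifng* value (10.5 to 18.2), and the points of *Il2*, *Il21*, *Il10* and *Il4* overlap.

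The order depended on the scale used. The exons of *Il21* in the annotation sum to 5259 bases, while the transcript used for its 3′ UTR has 3072. With the length of 1 protein-coding transcript per gene, an alternative chosen after seeing the data, *Il4* took the third place at 7.48 RPKM and *Il21* stood next at 7.08 RPKM. In that order *Tnf* and *Ifng* were first and second and *Il6* last. As CPM, with no length, *Il21* was second at 21.7 CPM and *Ifng* next at 18.2 CPM, with *Il21* the higher in 4 of 6 mice (exact paired permutation p = 0.531), after *Tnf* at 64.3 CPM.

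No helper cytokine gene differed between *Prdm1*-CKO and CTL Tfh beyond the spread between mice. This comparison asks whether deletion of *Prdm1* in dendritic cells goes with altered cytokine transcripts in Tfh cells. In edgeR's quasi-likelihood test with Benjamini-Hochberg adjustment, 0 of the 7 genes had an adjusted p under 0.05, and 0 of all 14555 tested genes did (0%). DESeq2's Wald test also called 0 of the 7 genes, and 9 of all genes. At an unadjusted p under 0.05 the list gave 0 of 7 genes in edgeR's test, against 2.35% of tested genes, and 0 of 7 also without CTL replicate 2. The CPM of the groups did not overlap in 0 of 7 genes, against 8.42% of tested genes. The log2 fold change, *Prdm1*-CKO over CTL, was above 0 for 4 genes and below 0 for 3, with a median of 0.02 beside 0.01 over all tested genes. The median absolute log2 fold change was 0.16 for the list and 0.23 for all tested genes. Adjusted p-values of the 7 genes from edgeR lay between 0.996 and 0.998. The exact permutation test of log2 CPM, 3 mice against 3, gave p = 0.4 to 1 (two-sided), where the smallest possible is 0.1.

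**Figure D2:**
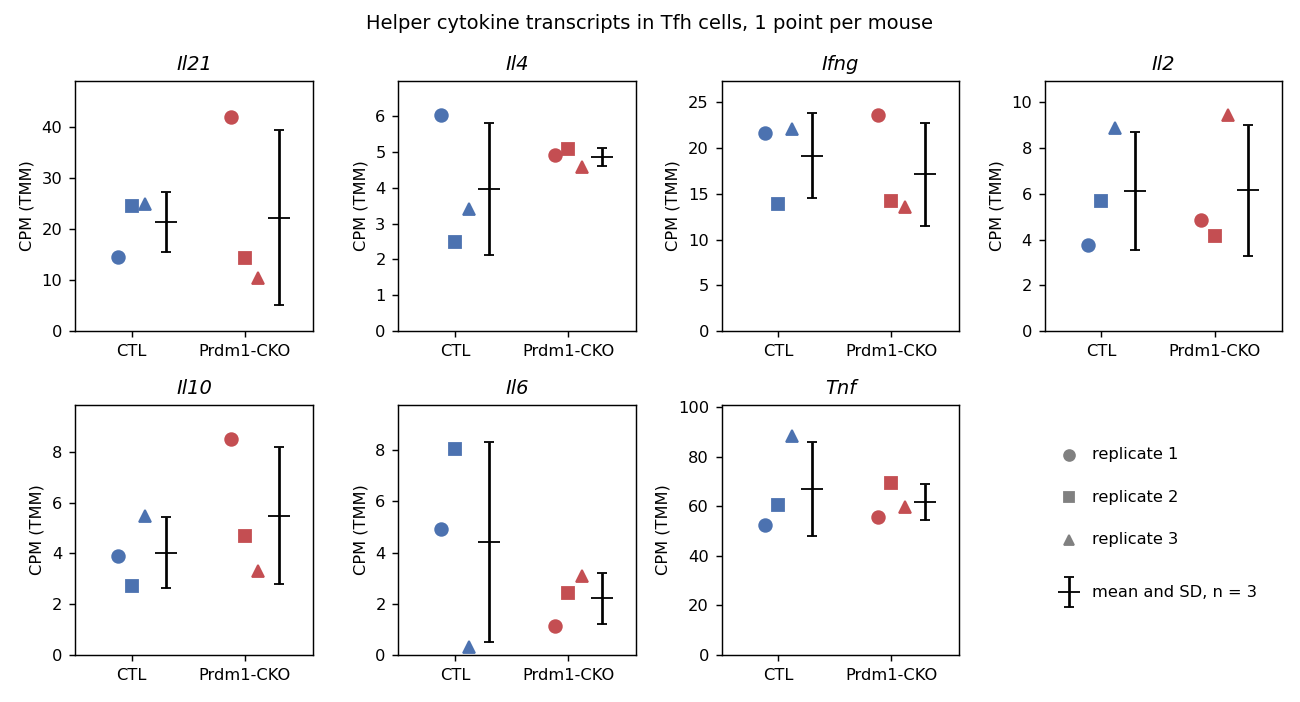
CPM of each cytokine gene, 1 panel per gene with its own axis from 0, with 1 point per mouse and the mean and SD of 3 mice per group beside the points. CTL and *Prdm1*-CKO points overlap in all 7 panels, and *Prdm1*-CKO replicate 1 is the highest mouse for *Il21* (41.8 CPM), *Ifng* (23.6 CPM) and *Il10* (8.51 CPM).

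*Il21* (ENSMUSG00000027718.8) encodes IL-21, the signature cytokine of Tfh cells and a driver of plasma cell differentiation, and lies at chr3:37222759-37232636 on the minus strand. Its counts, here and below in the order of replicates 1 to 3, were 212, 207 and 168 for CTL, which is 14.5, 24.5 and 24.9 CPM. For *Prdm1*-CKO they were 742, 141 and 152, which is 41.8, 14.3 and 10.4 CPM. One *Prdm1*-CKO mouse was thus the highest of the 6. Of the other 2, replicate 3 was below every CTL mouse. Replicate 2, at 14.3 CPM, was about level with CTL replicate 1, at 14.5 CPM. *Prdm1*-CKO Tfh averaged 22.2 ± 17.1 CPM and CTL Tfh 21.3 ± 5.87 CPM (SD, n = 3 per group). The edgeR log2 fold change of 0.07 had a standard error of 0.51 and an adjusted p = 0.998, and its 95% interval from -1.11 to 1.25 corresponds to folds of 0.463 to 2.38. Without *Prdm1*-CKO replicate 1 the log2 fold change was -0.78 (unadjusted p = 0.0822 from edgeR), and without CTL replicate 1 it was -0.16, so the direction rested on single mice. Without CTL replicate 2 it was 0.18. An antisense gene, *Gm12534*, shares 469 exon bases with *Il21* and had 0 counts in every mouse. How reads on shared bases were counted is not given, so the *Il21* counts are uncertain there.

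*Il4* (ENSMUSG00000000869.12, chr11:53602982-53618669, minus strand) encodes IL-4, which promotes switching to IgG1 and IgE. There were 88, 21 and 23 counts for CTL, then 87, 50 and 67 for *Prdm1*-CKO. As CPM these were 6.03, 2.49 and 3.40 in CTL mice and 4.90, 5.08 and 4.59 in *Prdm1*-CKO mice. The *Prdm1*-CKO mice lay close together, inside the range of the CTL mice. The average was 4.86 ± 0.251 CPM for *Prdm1*-CKO and 3.97 ± 1.84 CPM for CTL Tfh (SD, n = 3 per group), for a log2 fold change of 0.28 ± 0.49 (SE, 95% interval -0.84 to 1.40). It was 0.71 without CTL replicate 1, the highest mouse, and 0.02 without CTL replicate 2, the lowest.

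*Ifng* (ENSMUSG00000055170.4, chr10:118441046-118445892, plus strand) encodes IFN-γ, the cytokine of Th1 cells, which directs switching to IgG2 isotypes. CTL libraries held 315, 117 and 149 counts, or 21.6, 13.9 and 22.0 CPM. *Prdm1*-CKO libraries held 419, 140 and 198 counts, or 23.6, 14.2 and 13.6 CPM. Each group had both high and low mice. *Prdm1*-CKO Tfh averaged 17.1 ± 5.62 CPM and CTL Tfh 19.2 ± 4.60 CPM (SD, n = 3 per group), for a log2 fold change of -0.16 ± 0.32 (SE, 95% interval -0.90 to 0.58). It was -0.46 without *Prdm1*-CKO replicate 1 and -0.35 without CTL replicate 2. *Gm49751*, a gene on the same strand, shares 336 exon bases with *Ifng* and had 177, 53 and 26 counts for CTL, then 203, 52 and 92 for *Prdm1*-CKO, so the *Ifng* counts are uncertain where reads fall on both. CD8 T and NK cells also make IFN-γ. Their 8 markers, all above the floor in every mouse, summed to 244 to 329 CPM in CTL and 204 to 238 CPM in *Prdm1*-CKO mice. The largest part was *Nkg7*, at 145.1 to 188.2 and 121.2 to 143.7 CPM in the same order. *Cd8b1* went the other way, at 14.6 to 17.1 CPM in *Prdm1*-CKO mice and at most 13.7 CPM in CTL mice. *Eomes* also averaged higher in *Prdm1*-CKO mice, at 20.7 CPM against 15.0 CPM, with overlapping values. The part of these cells in the *Ifng* values was not tested.

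*Il2* (ENSMUSG00000027720.7, chr3:37120523-37125959, minus strand) encodes IL-2, the T cell growth factor, whose signal restrains Tfh differentiation. There were 55, 48 and 60 counts for CTL, then 86, 41 and 138 for *Prdm1*-CKO. The CPM values were 3.77, 5.69 and 8.88 in CTL and 4.85, 4.17 and 9.45 in *Prdm1*-CKO mice. Replicate 3 was the highest mouse of each group. *Prdm1*-CKO Tfh averaged 6.16 ± 2.87 CPM and CTL Tfh 6.11 ± 2.58 CPM (SD, n = 3 per group), for a log2 fold change of 0.02 ± 0.51 (SE, 95% interval -1.16 to 1.20). Leaving out 1 mouse moved it between -0.43, without *Prdm1*-CKO replicate 3, and 0.40, without CTL replicate 3. It was -0.03 without CTL replicate 2. The exons of *Il2* do not overlap those of *Adad1*, which spans part of the same interval.

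*Il10* (ENSMUSG00000016529.5, chr1:131019845-131024974, plus strand) encodes IL-10, a cytokine that restrains inflammation and also supports B cells. CTL libraries held 57, 23 and 37 counts, or 3.90, 2.72 and 5.47 CPM. *Prdm1*-CKO libraries held 151, 46 and 48 counts, or 8.51, 4.68 and 3.29 CPM. *Prdm1*-CKO replicate 1 was the highest mouse, as for *Il21* and *Ifng*, and the other 2 *Prdm1*-CKO mice lay within the CTL range. The average was 5.49 ± 2.70 CPM for *Prdm1*-CKO and 4.03 ± 1.38 CPM for CTL Tfh (SD, n = 3 per group), for a log2 fold change of 0.45 ± 0.53 (SE, 95% interval -0.77 to 1.67). It was -0.01 without *Prdm1*-CKO replicate 1 and 0.23 without CTL replicate 2. Regulatory T cells also make IL-10. In *Prdm1*-CKO replicate 1 the summed regulatory T cell markers, at 828 CPM, were below those of every CTL mouse, while *Foxp3*, the defining marker, was at 182 CPM and highest of the 6 mice, and their part in the *Il10* values was not tested.

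*Il6* (ENSMUSG00000025746.11, chr5:30013114-30019981, plus strand) encodes IL-6, which drives STAT3 activation and Tfh differentiation and is made by many cell types. CTL libraries held 72, 68 and 2 counts, or 4.93, 8.06 and 0.296 CPM. *Prdm1*-CKO libraries held 20, 24 and 45 counts, or 1.13, 2.44 and 3.08 CPM. The CTL mice held both the 2 highest values and the lowest value, a 27.2-fold range, so all *Prdm1*-CKO mice lay inside it. The 2 counts of CTL replicate 3 allow 0.0339 to 1.01 CPM of its unscaled total (exact binomial interval, 95%, counting error only). The average was 2.22 ± 0.996 CPM for *Prdm1*-CKO and 4.43 ± 3.90 CPM for CTL Tfh (SD, n = 3 per group). The edgeR log2 fold change of -1.01 ± 0.94 (SE, adjusted p = 0.996) had the widest 95% interval of the 7 genes, from -3.17 to 1.15. Without CTL replicate 3 it was -1.54 with an unadjusted p = 0.0394 and an adjusted p = 0.76 from edgeR, and without CTL replicate 2 it was -0.30.

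The basophil and mast cell markers stood beside *Il6*. The 7 markers, all above the floor in every mouse, summed to 142, 136 and 35.4 CPM for CTL, then 73.3, 67.0 and 69.5 CPM for *Prdm1*-CKO. The same 2 CTL mice were highest, and CTL replicate 3 was lowest, in both *Il6* and this sum. Within the *Prdm1*-CKO group the order differed, as replicate 1 had the lowest *Il6* and the highest sum. CTL replicate 3 was also lowest in the dendritic cell sum, at 55.3 CPM, where *Prdm1*-CKO replicate 3 was highest at 124 CPM. Not every basophil and mast cell marker followed the sum of these markers. CTL replicate 3 was the lowest mouse in 5 of the 7 markers, but *Fcer1a*, a chain of the IgE receptor, was highest there at 12.1 CPM, and *Gata2* was lowest in CTL replicate 2 at 3.32 CPM. Basophil, mast cell and dendritic cell markers were set beside *Il6* after its values were seen. The part of these cells in the *Il6* values was not tested.

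**Figure D3:**
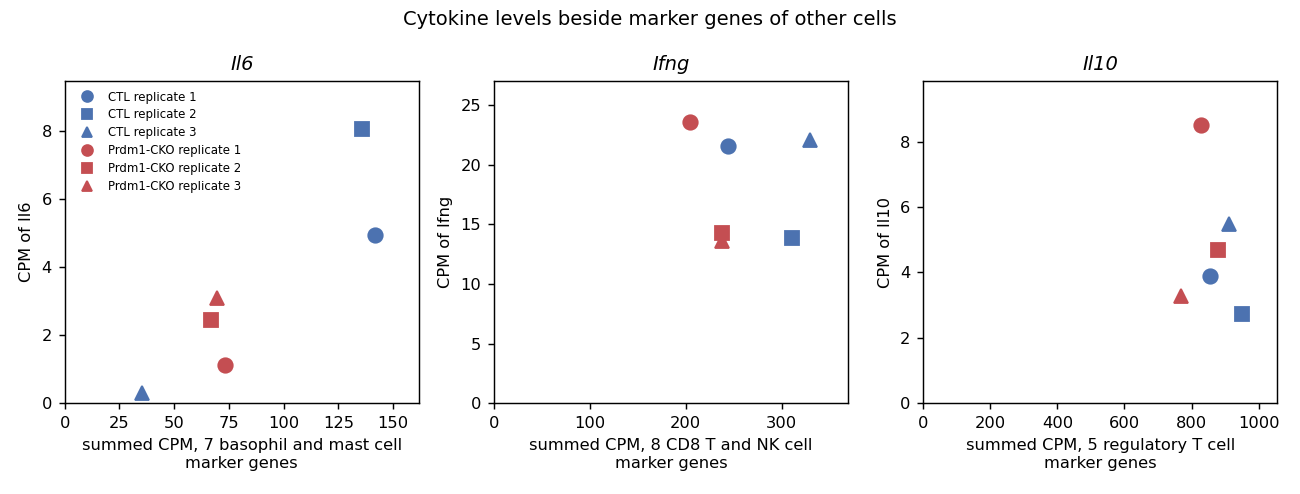
CPM of *Il6*, *Ifng* and *Il10* (vertical axes) against the summed CPM of the basophil and mast cell, CD8 T and NK cell, and regulatory T cell markers (horizontal axes), with 1 point per mouse and all axes from 0. CTL replicates 1 and 2 are highest and CTL replicate 3 lowest on both axes of the *Il6* panel. Within *Prdm1*-CKO, replicate 1 has the lowest *Il6* (1.13 CPM) and the highest sum (73.3 CPM) of that panel. *Prdm1*-CKO replicate 1 is highest in *Ifng* (23.6 CPM) and *Il10* (8.51 CPM) at marker sums of 204 and 828 CPM. The part of these cells was not tested in any panel.

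*Tnf* (ENSMUSG00000024401.14, chr17:35199381-35202007, minus strand) encodes TNF, an inflammatory cytokine made by activated T cells and macrophages. CTL libraries held 763, 511 and 596 counts, or 52.3, 60.5 and 88.2 CPM. *Prdm1*-CKO libraries held 986, 684 and 874 counts, or 55.6, 69.5 and 59.9 CPM. The *Prdm1*-CKO mice lay within the CTL range. *Prdm1*-CKO Tfh averaged 61.6 ± 7.17 CPM and CTL Tfh 67.0 ± 18.8 CPM (SD, n = 3 per group). The log2 fold change of -0.12 ± 0.23 (SE) had the narrowest 95% interval of the 7 genes, from -0.65 to 0.41, or folds of 0.639 to 1.33. It was 0.14 without CTL replicate 3, the highest mouse, and -0.20 without CTL replicate 2. *Tnf* made up between 39.6% and 60.8% of the summed CPM of the 7 genes, which was 104 to 153 CPM per mouse.

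**Figure D4:**
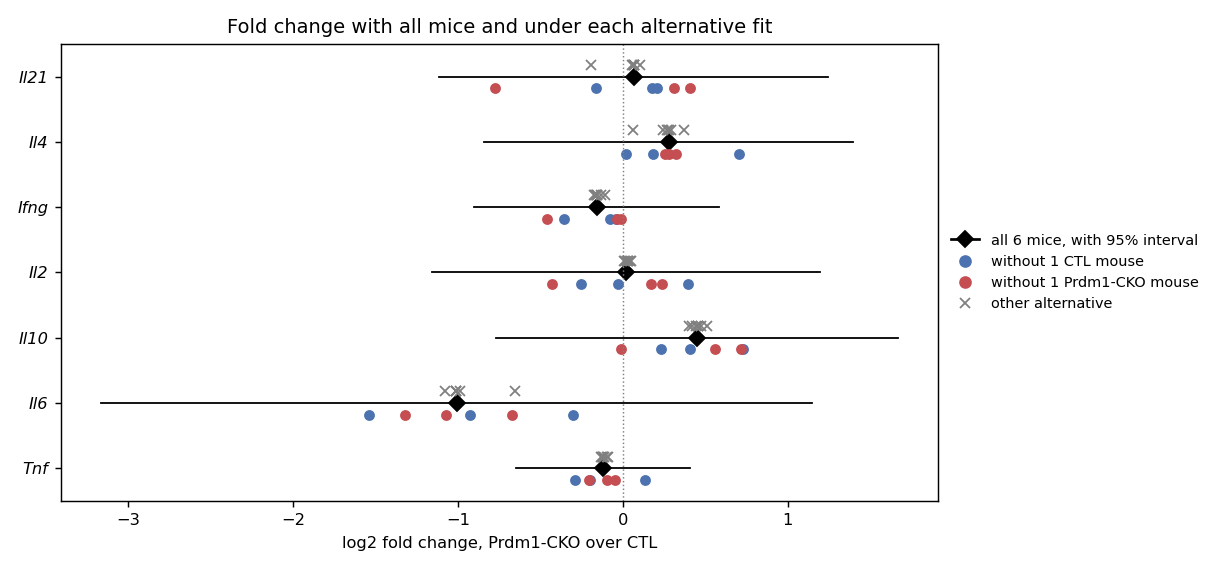
Log2 fold change of the 7 cytokine genes, *Prdm1*-CKO over CTL, with all 6 mice (diamond, with its 95% interval) and under alternatives: circles for fits without 1 CTL or 1 *Prdm1*-CKO mouse and crosses for other settings. All 7 intervals include 0, *Il6* has the widest (-3.17 to 1.15), and leaving out 1 mouse moves *Il21* from -0.78 to 0.41.

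Genes next to the cytokine genes on the chromosome were read in the same fit. *Ltb* and *Lta*, which flank *Tnf* and encode lymphotoxins, had log2 fold changes of -0.02 and -0.14. *Ltb*, averaging 548 ± 33.8 CPM over *Prdm1*-CKO and 556 ± 94.5 CPM over CTL libraries (SD, n = 3 per group), was the most abundant neighbor. *Ifngas1*, a long noncoding RNA 56142 bp from *Ifng*, averaged 7.60 ± 3.16 CPM over *Prdm1*-CKO and 13.4 ± 3.81 CPM over CTL libraries (SD, n = 3 per group), for a log2 fold change of -0.81 (unadjusted p = 0.0779, adjusted p = 0.996 from edgeR), or -0.57 without CTL replicate 2. *Fcmr*, a B cell gene near *Il10*, had a log2 fold change of 0.85 (unadjusted p = 0.108 from edgeR), or 0.46 without CTL replicate 2. *4932438A13Rik* near *Il2* had -0.47 (unadjusted p = 0.0575 from edgeR), or -0.26 without that mouse. The log2 fold changes of *Cetn4*, *Kif3a*, *Rad50*, *Mdm1*, *Mapkapk2*, *Dnajb6* and *Tyms* lay between -0.22 and 0.30.

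Receptors of these cytokines did not pass the test. All 14 listed receptor genes were tested, with 0 past an adjusted p under 0.05, 8 above 0, 6 below 0 and a median log2 fold change of 0.03. The median changed sign with single mice left out, from -0.07 without CTL replicate 2 to 0.12 without *Prdm1*-CKO replicate 2. At an unadjusted p under 0.05, 1 of the 14 was higher in *Prdm1*-CKO Tfh, *Il13ra1*, a chain of the receptor for IL-4 and IL-13, where 2.35% of all tested genes passed (135 higher and 207 lower). It had 709, 240 and 185 counts for CTL, or 48.6, 28.4 and 27.4 CPM. For *Prdm1*-CKO it had 1169, 403 and 927, or 65.9, 41.0 and 63.5 CPM, so the highest CTL mouse lay above the lowest *Prdm1*-CKO mouse. The edgeR log2 fold change of 0.70 ± 0.30 (SE) had an unadjusted p = 0.0439 and an adjusted p = 0.996. Without CTL replicate 2 it was 0.57 (unadjusted p = 0.0981 from edgeR), and it also missed the unadjusted threshold without CTL replicate 3 (0.56), *Prdm1*-CKO replicate 1 (0.59) or *Prdm1*-CKO replicate 3 (0.62). The part of macrophages and other cells in the *Il13ra1* values was not tested. The most abundant were *Tnfrsf1b*, a TNF receptor, and *Il2rb*, the IL-2 receptor β chain, with log2 fold changes of 0.35 and -0.10.

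Among 29 transcription factor genes that act on cytokine genes, 0 passed an adjusted or an unadjusted p under 0.05 in edgeR's test, 13 were above 0 and 16 below, and the median log2 fold change was -0.02, or 0.02 without CTL replicate 2. Their log2 fold changes ran from -0.35 for *Nfatc2*, an NFAT factor, to 0.45 for *Eomes*, a factor of IFN-γ-producing cells. *Ets1*, averaging 1075 ± 41.9 CPM over *Prdm1*-CKO and 1225 ± 264 CPM over CTL libraries (SD, n = 3 per group), and *Junb*, a subunit of AP-1, were the most abundant.

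Among 9 genes induced by cytokine signals, 0 passed an adjusted or an unadjusted p under 0.05 in edgeR's test, and the median log2 fold change was 0.13, with 6 above 0 and 3 below. That median was -0.12 without *Prdm1*-CKO replicate 1 and -0.02 without CTL replicate 2. The lowest was *Socs2*, an inhibitor of JAK signaling, at -0.40. The highest was *Irf1*, induced by IFN-γ, at 0.22, averaging 319 ± 41.6 CPM over *Prdm1*-CKO and 274 ± 39.6 CPM over CTL libraries (SD, n = 3 per group). *Nfkbia*, the NF-κB inhibitor, had a log2 fold change of 0.18.

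Several other T cell cytokine genes had no or few counts. Of 16 listed, *Il3*, *Il9*, *Il13* and *Il24* had 0 counts in all 6 mice, which allows up to the floor of 3 counts in each. *Il5* had 3 counts in *Prdm1*-CKO replicate 3 and *Il22* had 6 in *Prdm1*-CKO replicate 2, with 0 in the other mice. *Csf2* had 7 counts in CTL replicate 2 and 3 in each of *Prdm1*-CKO replicates 1 and 3. The other 9 were tested, with 0 past an adjusted p under 0.05, 4 above 0, 5 below and a median log2 fold change of -0.02. With 1 mouse left out that median ran from -0.14, without *Prdm1*-CKO replicate 2, to 0.08, without CTL replicate 3. *Ltb* and *Il16* were the most abundant, with log2 fold changes of -0.02 and -0.14. At an unadjusted p under 0.05, 1 of the 9 was lower in *Prdm1*-CKO Tfh, against 2.35% of all tested genes in either direction. This was *Ccl4*, a chemokine that attracts T cells and myeloid cells. It had 623, 216 and 103 counts for CTL, or 42.7, 25.6 and 15.2 CPM. For *Prdm1*-CKO it had 271, 90 and 221, or 15.3, 9.15 and 15.1 CPM, so the lowest CTL mouse lay just below the highest *Prdm1*-CKO mouse. The edgeR log2 fold change of -1.08 ± 0.40 (SE) had an unadjusted p = 0.0274 and an adjusted p = 0.996. It was -1.14 without CTL replicate 2, and it missed the unadjusted threshold without CTL replicate 1 (-0.64) or *Prdm1*-CKO replicate 2 (-0.87).

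The 7 listed genes of decay factors of cytokine transcripts were all tested. Of these 7 genes 0 passed an adjusted or an unadjusted p under 0.05 in edgeR's test, with 2 above 0, 5 below and a median log2 fold change of -0.08, which was -0.23 without *Prdm1*-CKO replicate 2. *Zfp36*, which encodes tristetraprolin, averaged 169 ± 17.4 CPM over *Prdm1*-CKO and 160 ± 69.2 CPM over CTL libraries (SD, n = 3 per group). *Zfp36l1*, a related decay factor, averaged 208 ± 27.3 and 216 ± 55.7 CPM.

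Genes whose levels varied most like each cytokine gene over the 6 mice were taken by Pearson's r of log2 CPM across 14554 genes, as a description of 6 points that share library depth and cell makeup. For *Il21* these were *Pigx* (r = 0.990), *Dhx32* (r = 0.956) and *Gm13502* (r = 0.953), and 13 genes had an r over 0.9. For *Il10* they were *Ublcp1* (r = 0.985), *Lag3* (r = 0.976), an inhibitory receptor of activated T cells, and *Wars* (r = 0.974). For *Tnf* they were *6530402F18Rik* (r = 0.990), *AW112010* (r = 0.990) and *Traj39* (r = 0.985). The closest gene was *Gm46430* for *Il4*, *Alg3* for *Ifng*, *Stradb* for *Il2* and *Nhsl1* for *Il6*, with r from 0.994 to 0.996. Up to 499 genes, for *Il4*, had an r over 0.9.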

How the data were processed

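Splenic Tfh libraries of 3 CTL and 3 *Prdm1*-CKO mice were analyzed, 1 library per mouse, with groups taken from the sample titles. The authors deposited raw read counts per gene, without normalization, made from Smart-seq2 reads of 25 bp in pairs. Alignment was to GRCm38 (GRCm38.p6 and STAR 2.4.2a in the submitters' processing notes) and counting was done with featureCounts. Strand, multiply aligned reads and whether mates were counted as 1 fragment are not given in the sources used here. Even numbers made up 56.6% to 59.6% of counts from 1 to 20, and counts were halved as an alternative.

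Gene symbols, exon lengths and coordinates came from GENCODE M21, where 53274 of 53379 identifiers matched and 50604 had an equal version, all 7 cytokine genes included. Differential expression used the quasi-likelihood test of edgeR 4.0.16 (R 4.3.3) after TMM scaling and filterByExpr, adjusted over 14555 genes. CPM used TMM factors, log2 CPM a prior count of 2, and the paired order test a pseudocount of 0.1 RPKM. DESeq2 1.42.0 was an alternative. Steps were tested on simulated data. p-values measure the spread between these mice.

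The cytokine genes, lists and alternatives were chosen with earlier results of these data known. Named beside the 7 genes are list members at an unadjusted p under 0.05, the 2 most abundant of each list, the nearest tested neighbors, the 3 genes most alike, and *Prdm1*. Listed genes with few counts, *Nfatc2*, *Eomes*, *Socs2* and the cell type markers were named after their values were seen.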

Additional observations from a re-analysis of the deposited data

How the results depend on the processing

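The 7 cytokine genes kept an adjusted p over 0.05 under every alternative run: leaving out each mouse, halved counts, libraries thinned to the smallest total, a replicate block, a minimum of 10 counts per mouse, the Wald test or size factors of DESeq2, and no filter. The minimum of 10 counts removed *Il6*. Genes past an adjusted p under 0.05 numbered 0 in edgeR's test, 1 without the filter and 9 by the Wald test. At an unadjusted p under 0.05 there were 342, then 936 without the filter and 681 by the Wald test. Leaving out 1 mouse gave 174 to 1057 genes, with 1057 without CTL replicate 1, 952 without CTL replicate 3, 208 without *Prdm1*-CKO replicate 1 and 174 without *Prdm1*-CKO replicate 3. Of the cytokine genes, 0 to 1 passed that threshold with 1 mouse left out, *Il6* being the 1, without CTL replicate 3.

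The log2 fold change changed sign when mice were left out for *Il21* (-0.78 to 0.41), *Il2* (-0.43 to 0.40), *Il10* (-0.014 to 0.73) and *Tnf* (-0.29 to 0.14). It ranged from 0.02 to 0.71 for *Il4*, from -0.46 to -0.01 for *Ifng* and from -1.54 to -0.30 for *Il6*. With the replicate block *Il21* was at -0.19. The labels do not say whether same-numbered mice were handled together. Such mice correlated at 0.158, 0.028 and 0.016 in their deviations from the group means. Differently numbered mice correlated at -0.131 to 0.083, and these values cannot show whether the numbers mark a pairing. The block changed no call among the 7 genes. Depth was low for *Il4*, *Il10* and *Il6*, with as few as 21, 23 and 2 counts in a mouse. The causes of these shifts were not tested.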
